A study of Mus musculus with 19 samples.

Results

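The antigen presentation genes were taken as those whose symbol begins with H2-, the mouse major histocompatibility complex (MHC), together with B2m, Tap1, Tap2, Tapbp, Tapbpl, Nlrc5, Erap1, Psmb8, Psmb9, Psmb10, Cd74 and Ciita. This gave 59 genes of 55836 in the count table, of which 45 belong to class I (10 of them partners without an H2 symbol) and 14 to class II. Bulk RNA-seq of whole liver was made from 19 mice, 1 library each, in 4 groups. The labels' protocol speaks of RNA from 4 livers chosen at random, whereas their groups hold 4 or 5 libraries. The groups were used as labelled. The mice were male wild-type C57BL/6 animals, 8 weeks old at the start, and were followed for 8 weeks. CD + Veh mice (n = 4) ate a control diet with 10 kcal% fat and received the vehicle by gavage, and CD + PE mice (n = 5) ate the same diet and received polyethylene microplastic (PE) at 2 mg per mouse and day. MD + Veh (n = 5) and MD + PE mice (n = 5) received vehicle or PE on a diet rich in cholesterol (2%), fructose (20 kcal%) and fat (40 kcal%), made to cause metabolic dysfunction-associated steatohepatitis (MASH). The labels place all libraries in 1 batch. The mice of a group shared housing, so that neither diet nor PE can be told apart from cage. Library numbers ran group by group, first CD + Veh, then MD + Veh, CD + PE and MD + PE, so that both also follow library order and cannot be told apart from it. The libraries held 10398820 to 15456729 counts, with fewer in the PE groups. Levels are given as CPM, counts per 1e+06 library counts, scaled with TMM factors, so that 1 CPM stood for 9.96 to 16.1 counts in a library.

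Class I molecules are carried by nearly all nucleated cells. They show peptides that were cut by the proteasome, brought into the endoplasmic reticulum by the Tap1-Tap2 transporter and loaded there with the help of tapasin (Tapbp), and their heavy chain needs B2m to reach the cell surface. Class II molecules are pairs of an alpha and a beta chain on professional antigen-presenting cells, in liver Kupffer cells, dendritic cells and B cells. The chains assemble on the invariant chain Cd74 and exchange its remnant for peptide under the editor H2-DM. Their transcription depends on the transactivator Ciita, as that of class I depends in part on Nlrc5.

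Of the 59 genes, 34 passed the filter on low counts and were tested among 13597 genes, 25 of class I and 9 of class II. All 12 partners passed, against 22 of 47 H2 genes. Listed at 0 in every library were 14 genes, among them 10 of 14 H2-M genes, H2-Q3 and the class II genes H2-Ea, H2-Pa and H2-Pb. H2-Ea encodes the alpha chain that pairs with H2-Eb1, and C57BL/6 mice are known to lack its product. The other 11 genes below the filter had few counts, with at most 29 in any library for H2-Bl, 18 for H2-M2, 7 for H2-Oa, 4 for H2-Eb2 and 3 for H2-M6-ps. Of 53 members with a match by symbol in the GENCODE vM39 annotation of GRCm39, 46 lie on chromosome 17.

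The libraries were those of liver, with 6 hepatocyte markers summing to between 52480 and 97120 CPM, led by Alb. Several libraries stood apart. CD + PE replicate 2 was the highest of all 19 libraries for 26 of 34 members (76.5%), whereas it was the highest for 8.05% of all genes tested. Within its own group it was the highest for 31 members (91.2%, against 23.1% of all genes tested), including 9 of 9 of class II. MD + Veh replicate 4 was the lowest of its group for 27 members (79.4%, against 20.9% of all genes tested), and CD + PE replicate 1 for 24 (70.6%, against 18.4%). In CD + Veh, replicate 4 was the highest for 19 members (55.9%, against 26.9%) and replicate 3 the lowest for 18 (52.9%, against 25.1%), and in MD + PE replicate 4 was the highest for 16 (47.1%, against 23.5%) and replicate 3 the lowest for 16 (47.1%, against 19.8%). MD + Veh replicate 1 held skeletal muscle transcripts, with 2720 CPM over 6 markers, and so to a lesser extent did CD + PE replicate 1 (352 CPM) and MD + Veh replicates 2 and 3 (172 and 114 CPM). MD + PE replicate 2 held 295 CPM of intestinal and 144 CPM of bile duct markers, and MD + PE replicate 4 held 106 CPM of the latter. Results are therefore given with all 19 libraries and without CD + PE replicate 2. That library was picked by the values of these same members, after seeing the data. Calls gained without it are therefore no independent evidence. Every other library was left out in turn too, with the range of calls given at the end. In bulk tissue, fewer cells of a type and less RNA per cell cannot be told apart.

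On a scale that allows genes to be compared, CPM per kilobase of the canonical transcript, the most abundant member in CD + Veh livers was H2-Q10 with 1464 ± 144 (SD, n = 4), a class I gene whose product hepatocytes secrete. B2m followed with 929 ± 43.1 and the classical heavy chain H2-K1 with 799 ± 65.9. The ranges of H2-Q10 and B2m did not overlap, while those of B2m and H2-K1 did. H2-D1, the other classical heavy chain, lay at 276 ± 22.3, H2-T23 (Qa-1, which binds the NKG2 receptors of killer cells) at 127 ± 4.11 and H2-Q7 (Qa-2) at 104 ± 14.1. The class II genes were lower on this scale, with Cd74 at 48.5 ± 7.86, H2-Ab1 at 29.6 ± 4.65, H2-Aa at 21.1 ± 3.99, H2-Eb1 at 15.4 ± 1.73 and H2-DMa at 3.504 ± 0.365. The ranges of some neighbours in this order, such as H2-Aa and Psmb8 (19.9 ± 1.17) or H2-Eb1 and Erap1 (16.4 ± 0.43), overlapped. Those of others, such as H2-K1 and H2-D1, did not. Both transactivators stood low, Nlrc5 at 3.13 ± 0.784 and Ciita at 0.226 ± 0.0237, the lowest of the members tested that have a length.

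Of the genes described most fully, H2-K1 (GRCm39 chr17:34214987-34219321, minus strand), H2-Ab1 (chr17:34476663-34488393, plus), H2-Aa (chr17:34493404-34506798, minus) and H2-Eb1 (chr17:34504236-34535648, plus) lie at the start of the MHC region of chromosome 17, and H2-Q6 (chr17:35643777-35655332), H2-Q7 (chr17:35658131-35662749) and H2-Q10 (chr17:35780959-35785460), all on the plus strand, follow each other further on. The annotated spans of H2-Aa and H2-Eb1 overlap on opposite strands, as do those of Psmb9 and Tap1. The promoters of 3 called Q genes and of 3 class II chains are shown, with that of H2-K1, a classical heavy chain that was not called, for comparison. Each is the 250 bases before the canonical start in GENCODE vM39, read 5′ to 3′ on the gene's own strand from GRCm39. Capitals mark motifs searched on both strands, TTTCNNTTC (the core of the interferon response element), GGGANTCCC (a kappa B site), CCAAT (the site of NF-Y), TGACG (the core of the X2 box or cyclic AMP response element) and TATAAA (the TATA box). The class I promoters shown are those of H2-K1 (chr17:34219322-34219571, minus), H2-Q6 (chr17:35643527-35643776, plus), H2-Q7 (chr17:35657881-35658130, plus) and H2-Q10 (chr17:35780709-35780958, plus), and the class II promoters those of H2-Aa (chr17:34506798-34507047, minus), H2-Ab1 (chr17:34481933-34482182, plus) and H2-Eb1 (chr17:34524563-34524812, plus).
H2-K1: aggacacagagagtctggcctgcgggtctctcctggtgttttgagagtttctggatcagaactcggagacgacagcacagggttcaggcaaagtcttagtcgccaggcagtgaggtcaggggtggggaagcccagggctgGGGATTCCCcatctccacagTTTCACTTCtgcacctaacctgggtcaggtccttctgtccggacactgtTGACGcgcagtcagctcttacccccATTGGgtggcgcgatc
H2-Q6: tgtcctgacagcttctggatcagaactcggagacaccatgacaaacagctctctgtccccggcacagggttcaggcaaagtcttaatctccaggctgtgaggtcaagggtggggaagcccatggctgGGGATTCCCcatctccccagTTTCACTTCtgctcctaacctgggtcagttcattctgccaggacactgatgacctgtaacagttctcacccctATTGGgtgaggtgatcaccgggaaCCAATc
H2-Q7: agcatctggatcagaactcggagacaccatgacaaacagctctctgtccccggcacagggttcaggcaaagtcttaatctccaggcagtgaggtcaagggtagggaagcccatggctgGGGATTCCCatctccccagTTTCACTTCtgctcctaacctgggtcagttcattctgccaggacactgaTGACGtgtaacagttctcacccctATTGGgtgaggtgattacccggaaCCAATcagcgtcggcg
H2-Q10: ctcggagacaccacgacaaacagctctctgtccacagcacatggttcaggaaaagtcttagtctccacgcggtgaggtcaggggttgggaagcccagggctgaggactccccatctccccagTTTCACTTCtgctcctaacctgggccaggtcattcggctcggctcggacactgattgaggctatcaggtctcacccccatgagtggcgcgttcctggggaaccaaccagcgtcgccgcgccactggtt
H2-Aa: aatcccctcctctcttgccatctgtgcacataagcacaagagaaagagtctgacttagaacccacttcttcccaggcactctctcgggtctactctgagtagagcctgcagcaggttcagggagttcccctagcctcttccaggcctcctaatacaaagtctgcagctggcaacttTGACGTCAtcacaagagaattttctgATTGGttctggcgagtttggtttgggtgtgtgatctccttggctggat
H2-Ab1: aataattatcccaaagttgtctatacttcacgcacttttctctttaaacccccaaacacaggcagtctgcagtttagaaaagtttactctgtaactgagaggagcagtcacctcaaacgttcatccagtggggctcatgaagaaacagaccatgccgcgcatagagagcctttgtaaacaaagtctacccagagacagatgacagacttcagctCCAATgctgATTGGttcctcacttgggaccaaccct
H2-Eb1: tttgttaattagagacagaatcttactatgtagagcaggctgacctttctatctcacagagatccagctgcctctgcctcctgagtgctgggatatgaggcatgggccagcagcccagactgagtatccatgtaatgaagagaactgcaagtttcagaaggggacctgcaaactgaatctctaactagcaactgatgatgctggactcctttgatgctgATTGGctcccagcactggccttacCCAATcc

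Of the promoters of members tested, TTTCNNTTC was found in 8 of 14 of class I H2 genes and 0 of 7 of class II H2 genes, against 6.85% of 21770 promoters of the same length. CCAAT stood in 9 of 14 and 6 of 7, against 36.5% of all. GGGANTCCC stood in 4 of 14 (H2-K1, H2-Q5, H2-Q6 and H2-Q7) and 0 of 7, against 0.703% of all promoters. TGACG stood in 6 of 14 and 1 of 7, against 18% of all, and in H2-Aa its letters occur on both strands and overlap. TATAAA stood in 2 of 14 and 0 of 7, against 11.9% of all. H2-Q10 held the interferon motif but neither the kappa B letters nor CCAAT, and the windows of H2-D1, H2-Q2, H2-T23 and the class II gene H2-DMb1 held none of the first 4 motifs. Other starts of these genes were not searched.

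The first question was what the MASH diet did in mice without PE. In MD + Veh against CD + Veh livers the median log2 fold change of the 9 class II genes was 1.11, against -0.00415 over all genes tested, and for 5 of 9 the lowest MD + Veh liver lay above the highest CD + Veh liver (7.37% of all genes tested). A gene was called changed where edgeR's quasi-likelihood test gave a Benjamini-Hochberg adjusted p below 0.05 and the log2 fold change, the log2 change in what follows, was at least 0.38 in size. With all 19 libraries 0 of 9 class II genes were called, although 6 had an unadjusted p below 0.05 (as had 3890 of 13597 genes tested). DESeq2 called 3 of class II (Cd74, H2-Ab1 and H2-Eb1). The share of all genes that DESeq2 called is not given here or below, so that nothing is read from its additional calls. The members called were 2 of class I, H2-K2 and H2-Q7, both lower, where 10.4% of all genes tested were called and 5.63% were called lower. Without CD + PE replicate 2, a library of neither group that enters through the shared estimate of the spread, 11 members were called (12.1% of all genes tested). Called higher were 7 of class II and Psmb9 (6.17% of all genes tested), and called lower were H2-K2, H2-Q6 and H2-Q7 (5.97% of all genes tested). A fit of these 2 groups alone also called 11, but the share of all genes called in that fit is not given here, so that nothing is read from this count.

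Cd74, the invariant chain, was measured at 78.5, 56.4, 63.5 and 79.1 CPM in CD + Veh replicates 1 to 4 and at 189, 216, 197, 89.4 and 159.9 CPM in MD + Veh replicates 1 to 5. The groups did not overlap, and replicate 4 was the lowest of the MD + Veh livers. The 2.45-fold higher level (log2 fold change 1.29, SE 0.449) had an adjusted p of 0.0603, and without CD + PE replicate 2 the SE was 0.23 and the adjusted p 0.000852. H2-Ab1, the beta chain of I-A, was at 37.4, 33.1, 30.1 and 43.04 CPM in CD + Veh and at 95.1, 105, 99.97, 43.2 and 83.3 CPM in MD + Veh livers. Replicate 4 of MD + Veh lay just above the highest CD + Veh liver and the other 4 far above it. The log2 fold change of H2-Ab1 was 1.25 (adjusted p = 0.0616, and 0.00226 when CD + PE replicate 2 was left out). That of H2-Eb1, the beta chain left without its partner in this strain, was also 1.25 (adjusted p = 0.0602, and 0.00147 without it), from 26.1 ± 2.93 (SD, n = 4) to 61.9 ± 17.7 CPM (SD, n = 5).

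H2-Aa, the alpha chain that pairs with H2-Ab1, was at 28.3, 19.1, 20.9 and 27.01 CPM in CD + Veh and at 50.8, 68.9, 63.6, 26.6 and 45.96 CPM in MD + Veh livers. Here MD + Veh replicate 4 lay inside the CD + Veh range, and the other 4 lay above it. The log2 change was 1.1 (SE 0.442, adjusted p = 0.105, and 0.00738 without CD + PE replicate 2). Ciita, the class II transactivator, was at 1.62, 1.79, 1.88 and 1.48 CPM in CD + Veh and at 4.18, 5.26, 4.36, 2.55 and 5.64 CPM in MD + Veh livers, without overlap. Its log2 change was 1.38 (SE 0.575, adjusted p = 0.12, and 0.00315 without that library). The editor genes H2-DMa (log2 fold change 1.11) and H2-DMb1 (0.95) had adjusted p of 0.116 and 0.188 with all libraries and of 0.00623 and 0.037 without it. H2-Ob, a chain of the H2-DM inhibitor found mainly in B cells, was at 0.738 to 1.12 CPM in CD + Veh and 0.387 to 1.24 CPM in MD + Veh livers, with a log2 change of -0.0746 (adjusted p = 0.926), the only class II gene tested with a value below 0.

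**Figure D1:**
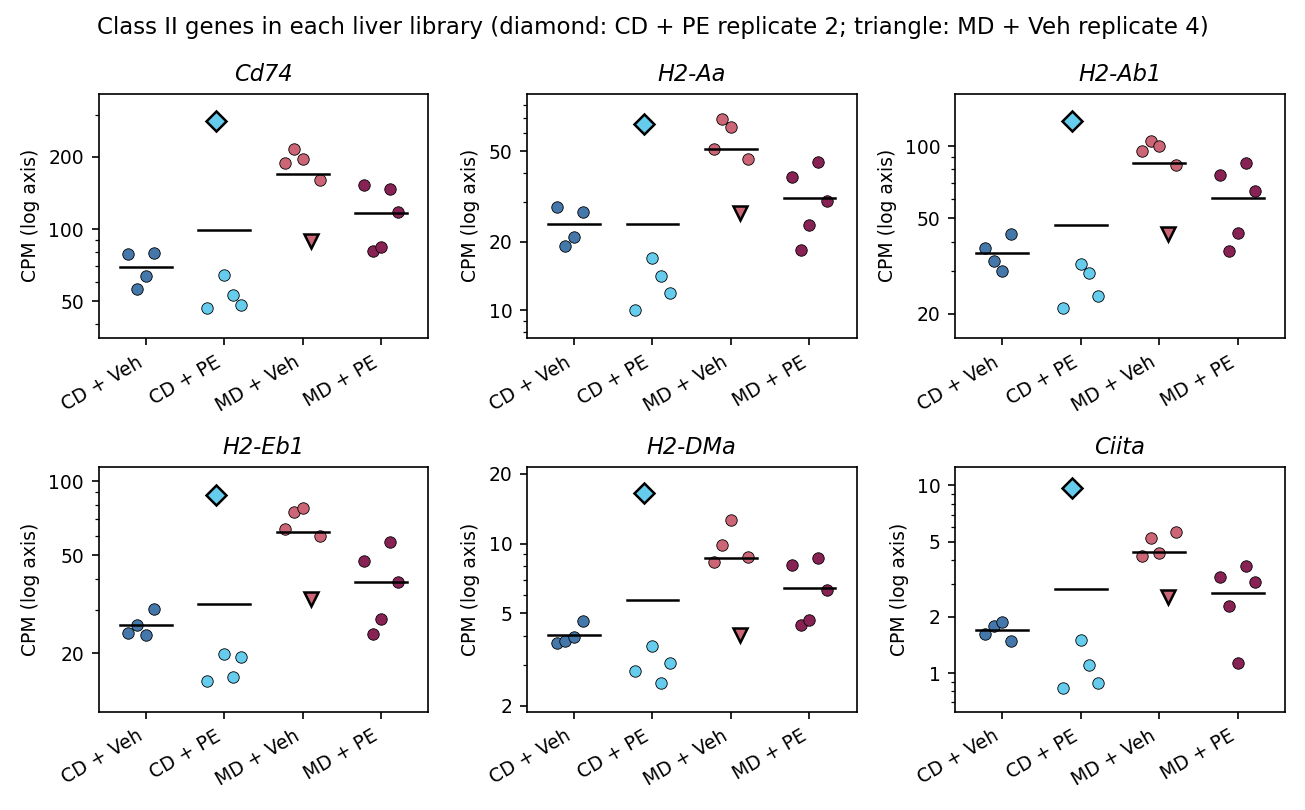
CPM on a log axis of 6 class II genes in each of the 19 liver libraries by group, with horizontal lines at the group means. CD + PE replicate 2 (diamond) lies above the other CD + PE livers in each panel (Cd74 283 against at most 64.5 CPM), and MD + Veh replicate 4 (triangle) is the lowest of its group (Cd74 89.4 CPM).

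The class I genes had a median log2 fold change of -0.0954 in the same comparison. H2-K1 had a log2 change of 0.13 (SE 0.134, adjusted p = 0.561), H2-D1 of 0.18 (SE 0.161, adjusted p = 0.491) and the transactivator Nlrc5 of -0.23 (SE 0.187, adjusted p = 0.445). B2m, the light chain, was at 939.9, 1021, 1041 and 1034 CPM in CD + Veh and at 1121, 1163, 1249, 1179 and 1391 CPM in MD + Veh livers. All 5 lay above the 4, yet the log2 change of 0.27 (SE 0.12) had an adjusted p of 0.135. Psmb9, an inducible subunit of the immunoproteasome, had a log2 change of 0.44 (adjusted p = 0.382, and 0.0408 without CD + PE replicate 2). Tap1, Tap2, Tapbp, Tapbpl, Erap1, Psmb8, Nlrc5 and B2m were called in none of the 6 contrasts in edgeR's test, with or without that library.

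H2-Q7, which encodes a Qa-2 heavy chain, was at 162, 145, 134 and 183 CPM in CD + Veh and at 90.8, 91.6, 84.5, 63.6 and 117 CPM in MD + Veh livers. The groups did not overlap, and the gene fell by 0.80 on the log2 scale (SE 0.212, adjusted p = 0.0158). The call was lost without CD + Veh replicate 4 (adjusted p = 0.0681). H2-K2, a neighbour of H2-K1, was at 16.2, 17.3, 16.2 and 24.2 CPM in CD + Veh and at 6.97, 10.9, 7.16, 8.59 and 13.5 CPM in MD + Veh livers, also without overlap. It fell by 0.97 (SE 0.297, adjusted p = 0.035), a call lost (adjusted p = 0.051 to 0.129) without any 1 of the 4 CD + Veh livers or of MD + Veh replicates 1, 3 and 4. H2-Q6 had a log2 change of -0.52 (adjusted p = 0.102, and 0.0189 without CD + PE replicate 2). H2-M2, below the filter with at most 18 counts, lay at 0 to 0.134 CPM in CD + Veh and 0.464 to 1.11 CPM in MD + Veh livers, and DESeq2 and a fit with no filter called it higher.

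Next, the effect of PE on the control diet was examined. With all 19 libraries, 0 of 34 members were called in edgeR's quasi-likelihood test, where 2.92% of all genes tested were called. Of the members, 3 had an unadjusted p below 0.05, against 2377 of 13597 genes tested. DESeq2 called B2m, without a share of all genes to set beside it. The direction of the class II genes rested on CD + PE replicate 2. With it their median log2 fold change was 0.391 and 8 of 9 lay above 0, and without it the median was -0.479 and 0 of 9 lay above 0. In neither fit was a class II gene called. The class I genes turned with the same library. Their median was 0.0136 with it (13 of 25 above 0) and -0.278 without it (3 of 25 above 0). Of the 10 class I partners, 8 lay above 0 with it and 1 without it.

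Cd74 was at 46.7, 283, 64.5, 52.8 and 48.1 CPM in CD + PE replicates 1 to 5. Replicate 2 was 4.39 times the next highest library of its group, and the other 4 lay within or below the CD + Veh range (56.4 to 79.1 CPM). The log2 change against CD + Veh was 0.51 (SE 0.442, adjusted p = 0.613) with replicate 2 and -0.39 (SE 0.24, adjusted p = 0.427) without it. H2-Aa was at 10.1, 66.05, 16.9, 14.2 and 11.9 CPM, so that 4 of 5 CD + PE livers lay below the lowest CD + Veh liver (19.1 CPM). Its log2 change was 0.00165 (SE 0.441, adjusted p = 0.999) with replicate 2 and -0.85 (SE 0.285, adjusted p = 0.112) without it. Ciita was at 9.65 CPM in replicate 2 and at 0.8302 to 1.501 CPM in the other 4, a ratio of 6.43 to the next highest.

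The same library was high in class I genes and in genes around the pathway. Psmb9 was at 57.2 CPM there and at most 20.6 in the other CD + PE livers, Psmb8 at 78.8 against 28.7 and Tap1 at 81.1 against 33.5 CPM. The classical heavy chains H2-D1 (1050 against 624 CPM) and H2-K1 (2055 against 1424 CPM) stood above the other livers by a smaller ratio. H2-Q10 was at 2288 CPM, within the 2079 to 2399 CPM of the other 4. Of genes outside the members, the interferon-induced factor Irf1 was at 69.7 against at most 33.2 CPM, the checkpoint ligand Cd274 at 14.7 against 2.83 CPM and the macrophage receptor Marco at 256 against 19.9 CPM. Ifng, the gene of interferon gamma, had at most 3 counts in any library.

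Without replicate 2, H2-Q6 and H2-Q7 were called lower in CD + PE than in CD + Veh livers, where 3.01% of all genes tested were called and 1.62% were called lower. In the same fit 11 members lay lower without overlap (6.08% of all genes tested), 7 of class I and 4 of class II. H2-Q6 was at 58.6, 52.4, 42.3 and 52.8 CPM in CD + Veh and at 27.1, 31.2, 33.8 and 37.2 CPM in CD + PE replicates 1, 3, 4 and 5, against 66.7 CPM in replicate 2. The 4 lay below all CD + Veh livers and replicate 2 above them. H2-Q6 fell by 0.67 (SE 0.155, adjusted p = 0.0211), and with replicate 2 its log2 change was -0.39 (adjusted p = 0.349). H2-Q7 fell by 0.58 (SE 0.158, adjusted p = 0.0473), and with replicate 2 its log2 change was -0.30 (adjusted p = 0.506). B2m was at 1245, 1758, 1323, 1219 and 1099 CPM in CD + PE livers, all above the highest CD + Veh liver (1041 CPM), with a log2 change of 0.40 (SE 0.12, adjusted p = 0.0723), and of 0.28 (SE 0.099, adjusted p = 0.137) without replicate 2. Without CD + PE replicate 5 it was called higher (0.46, adjusted p = 0.0434).

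PE on the MASH diet was then compared with the vehicle on that diet. Of 34 members 1 was called, H2-Q10, where 1.08% of all genes tested were called and 0.934% were called lower. This class I gene was at 2111, 2391, 2185, 2009 and 2208 CPM in MD + Veh replicates 1 to 5 and at 1624, 1513, 1306, 1935 and 1389 CPM in MD + PE replicates 1 to 5. All 5 MD + PE livers lay below the lowest MD + Veh liver, with MD + PE replicate 4 the closest to it. H2-Q10 fell by 0.49 on the log2 scale (SE 0.0973, adjusted p = 0.0156). The call was lost without MD + PE replicate 3 (adjusted p = 0.0585) and in 3 further fits, of these 2 groups alone (log2 fold change -0.47, adjusted p = 0.0833), with a term for library numbers above 45 (-0.44, adjusted p = 0.221) and without 3 libraries that stand apart, CD + PE replicate 2, MD + Veh replicate 1 and MD + PE replicate 2 (-0.48, adjusted p = 0.0883). H2-Q10 was at 1878 to 2359 CPM in CD + Veh and at 2079 to 2399 CPM in CD + PE livers.

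**Figure D2:**
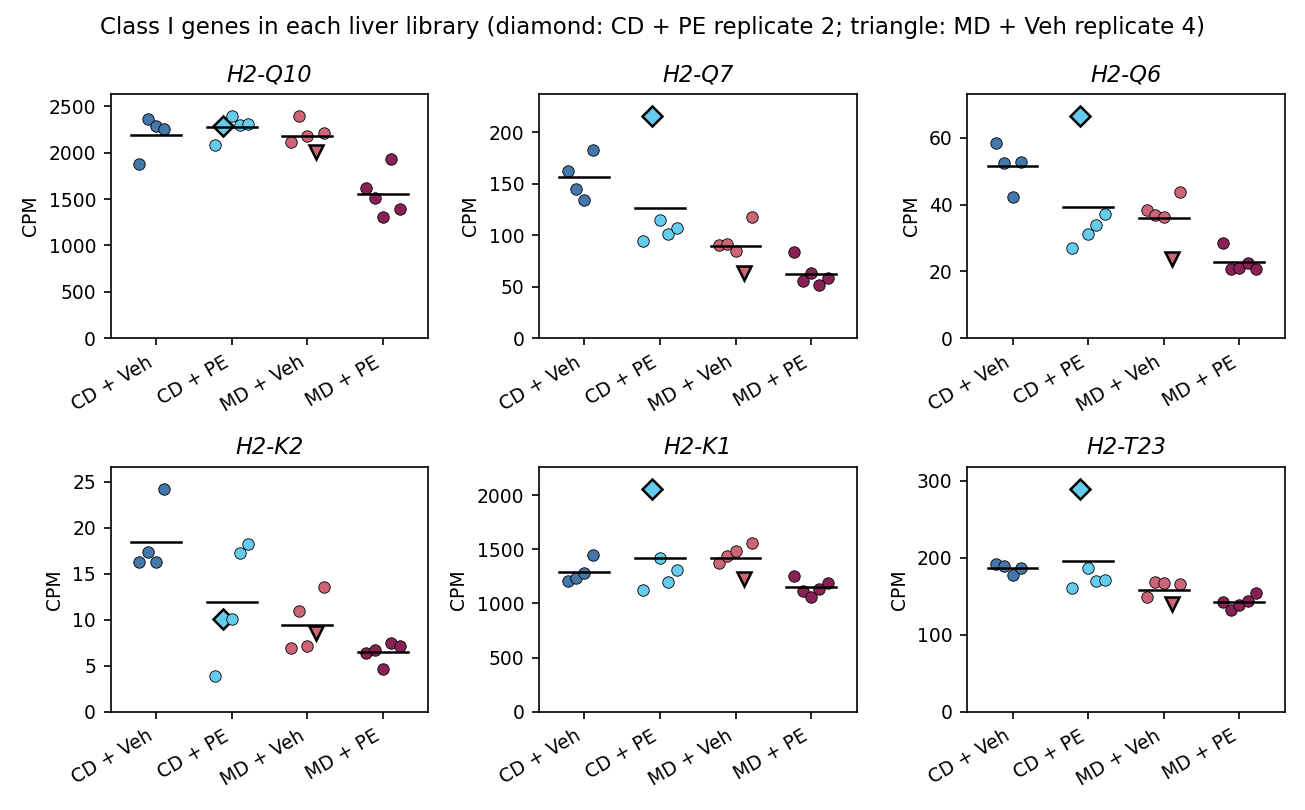
CPM of 6 class I genes in each of the 19 liver libraries by group, on axes that start at 0, with horizontal lines at the group means. The H2-Q10 values of MD + PE livers (1306 to 1935 CPM) lie below all MD + Veh livers (2009 to 2391 CPM), and H2-Q7 is highest in CD + PE replicate 2 (diamond, 216 CPM).

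Of the 34 members, 30 had a log2 fold change below 0 in this comparison, with a median of -0.291 against -0.0118 over all genes tested. The 9 class II genes all lay below 0 (median -0.491), but the groups overlapped for each of them, and 0 of 9 had an unadjusted p below 0.05 (2132 of 13597 genes tested). Without CD + PE replicate 2, which is in neither group, 4 of 9 (Cd74, Ciita, H2-Aa and H2-Eb1) and 16 of 34 members had one, against 2257 of 13608 genes tested, and the smallest adjusted p of class II was 0.125 (H2-Eb1). Cd74 was at 154, 81.3, 84.2, 147 and 118 CPM in MD + PE livers. Replicates 2 and 3 lay below the lowest MD + Veh liver (89.4 CPM), and the other 3 lay below the highest 4 of that group. Its log2 change was -0.54 (SE 0.411, adjusted p = 0.571), that of H2-Aa -0.72 (SE 0.408, adjusted p = 0.421), that of H2-Ab1 -0.48 (SE 0.398, adjusted p = 0.614) and that of H2-Eb1 -0.67 (SE 0.397, adjusted p = 0.447).

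H2-K1 was at 1373, 1442, 1482, 1225 and 1555 CPM in MD + Veh and at 1256, 1117, 1061, 1134 and 1190 CPM in MD + PE livers. The groups overlapped through MD + Veh replicate 4 and MD + PE replicate 1, and the log2 change of -0.30 (SE 0.126) had an adjusted p of 0.256. H2-Q6 had a log2 change of -0.66 (adjusted p = 0.103) and Psmb9 of -0.60 (adjusted p = 0.353). In the fit of these 2 groups alone Psmb9 was the 1 member called, at -0.58, and H2-Q10 was not. Without CD + PE replicate 2, H2-Q10, H2-Q6 and Psmb9 were called lower (adjusted p = 0.0183, 0.0213 and 0.0319), where 1.29% of all genes tested were called and 1.09% were called lower. H2-Q2 had a log2 change of 1.38 (adjusted p = 0.314), with 5.47 CPM in MD + PE replicate 2, the library with intestinal markers, and at most 1.305 CPM in the other 4.

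The fourth comparison asked what the MASH diet did in mice that received PE. With all libraries, 4 members were called, all of class I and all lower in MD + PE than in CD + PE livers, where 4.61% of all genes tested were called and 2.92% were called lower. H2-Q7 was at 93.9, 216, 114, 101 and 107 CPM in CD + PE and at 83.6, 55.8, 63.2, 51.8 and 58.3 CPM in MD + PE livers, without overlap. It fell by 1.02 (SE 0.205, adjusted p = 0.00438), and by 0.73 (SE 0.151, adjusted p = 0.00445) without CD + PE replicate 2. H2-Q10 fell by 0.55 with and by 0.55 without that library (adjusted p = 0.00154 and 0.0026). H2-Q6 fell by 0.79 with and by 0.51 without it (adjusted p = 0.0227 and 0.0357), although MD + PE replicate 1 lay above CD + PE replicate 1, and the call was lost without MD + PE replicate 2 or 5 (adjusted p = 0.0527 and 0.0546). H2-T23 fell by 0.45 (adjusted p = 0.027) with it, while without it the log2 change was -0.27 (adjusted p = 0.0156), smaller than the size required for a call. That of H2-T23 was also lost without MD + PE replicate 2, 3 or 4 (adjusted p = 0.0647, 0.0517 and 0.0589). In the fit of these 2 groups alone H2-Q6 and H2-T23 had adjusted p of 0.0653 and 0.115, and DESeq2 called H2-K2 and Psmb10 lower beside the 4.

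The class II genes turned on CD + PE replicate 2 here as well, a library picked for its high values of these genes. With it, 0 of 9 were called and the median log2 fold change was 0.296. Without it, 11 members were called (7.25% of all genes tested, with 3.59% called higher and 3.66% lower), among them 7 class II genes, all higher in MD + PE, and the median was 1.14. Cd74 had a log2 change of 0.24 (SE 0.412, adjusted p = 0.797) with the library and of 1.14 (SE 0.232, adjusted p = 0.0042) without it, when all 5 MD + PE livers (81.3 to 154 CPM) lay above the 4 CD + PE livers left (46.7 to 64.5 CPM). The log2 fold change of H2-Ab1 moved from 0.38 to 1.2, that of H2-Aa from 0.38 to 1.23, that of H2-Eb1 from 0.30 to 1.14 and that of Ciita from -0.0615 to 1.31 (adjusted p without it of 0.00593, 0.00757, 0.00593 and 0.0129). H2-DMa and H2-DMb1, which form the editor H2-DM, moved from 0.17 to 1.1 and from 0.40 to 1.27 (adjusted p without it of 0.0143 and 0.0156). H2-T24, a class I gene at 2.69 to 4.39 CPM in MD + PE and 1.33 to 2.57 CPM in the 4 CD + PE livers, was called higher too (0.92, adjusted p = 0.0339). The class I median moved as well, from -0.304 with CD + PE replicate 2 to -0.0503 without it. That of the 10 class I partners moved from -0.298 to -0.00181. The 2 diet comparisons share no library, but they share the estimate of the spread.

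**Figure D3:**
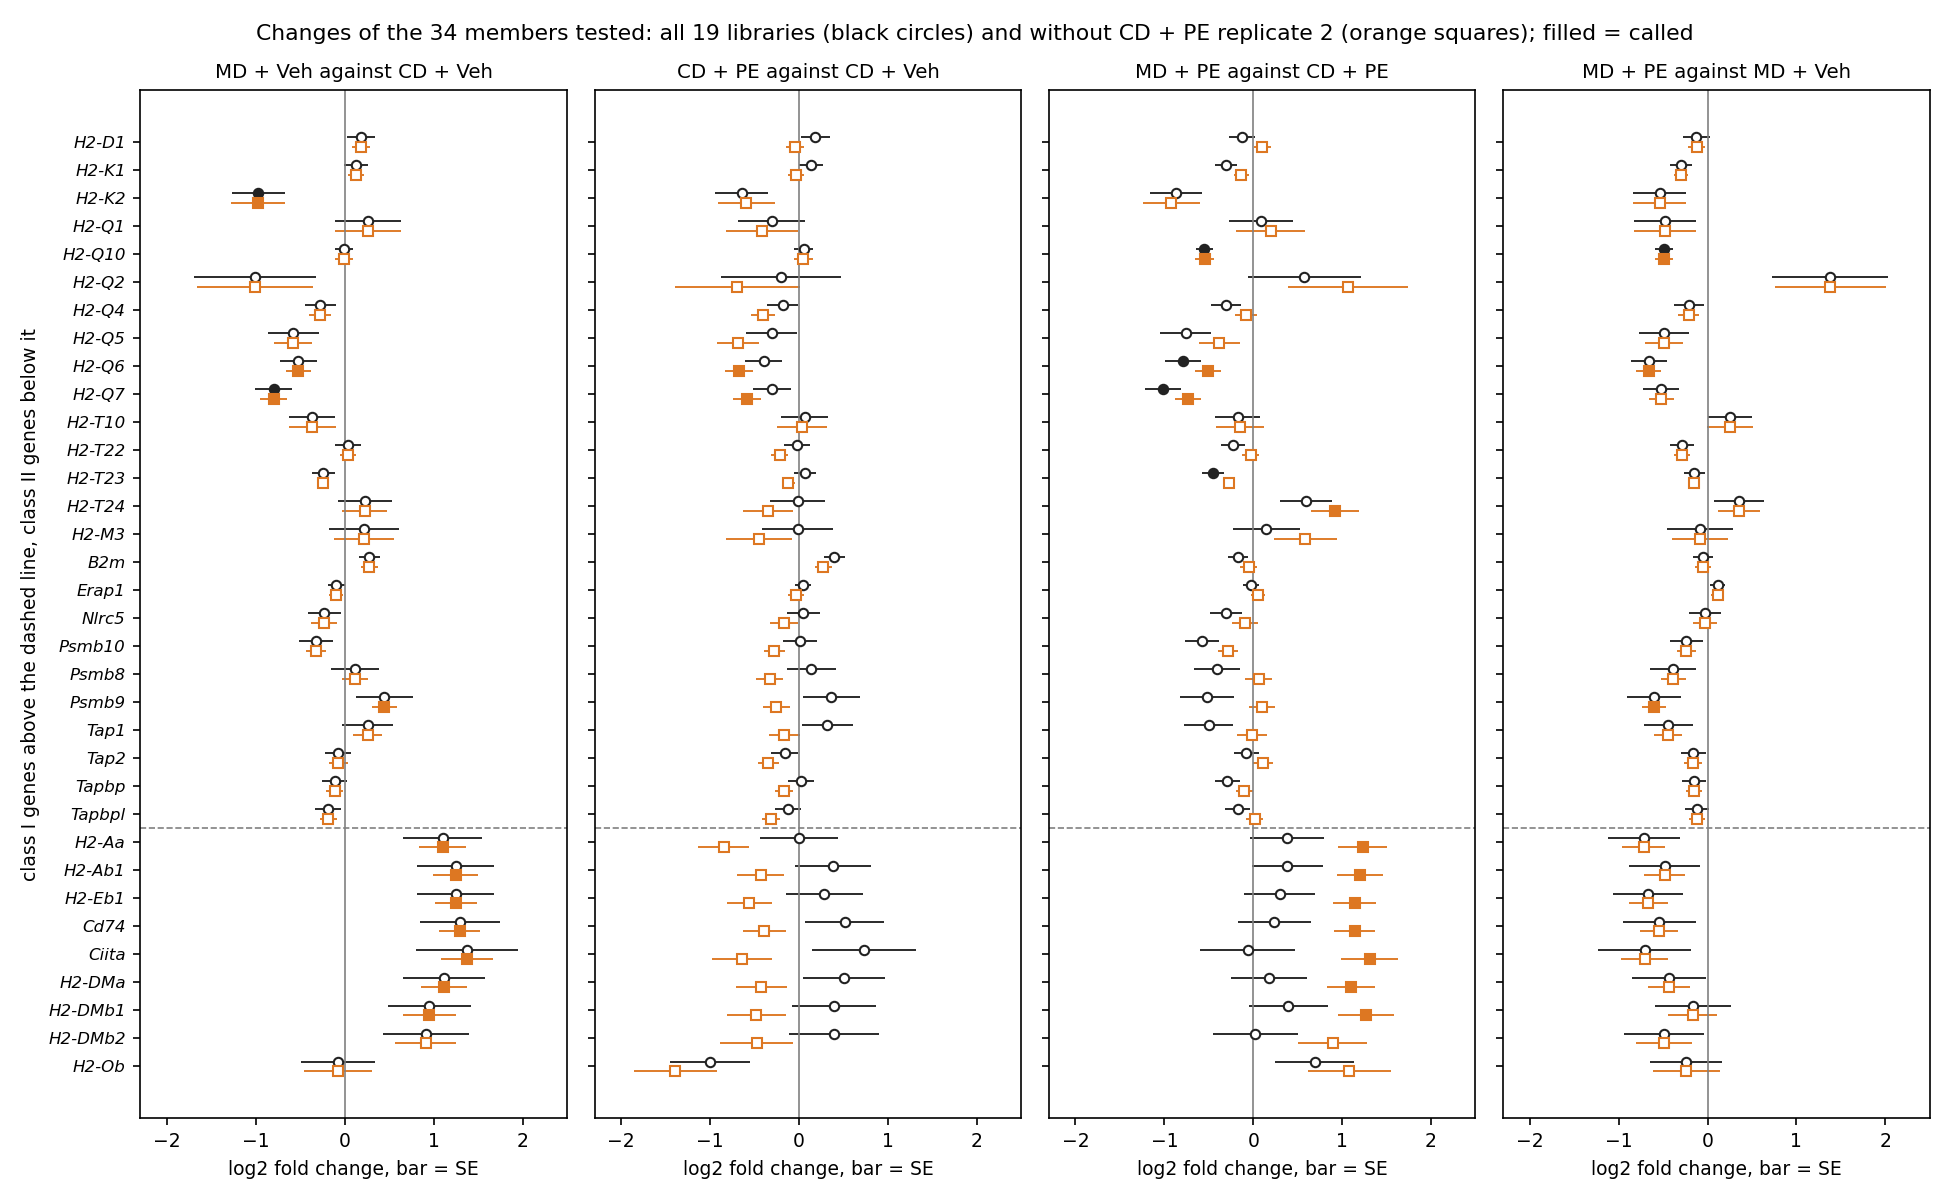
Log2 fold changes (points) with their SE (bars) for the 34 members tested in 4 comparisons, with all 19 libraries (black circles) and without CD + PE replicate 2 (orange squares), filled where the gene was called. Class II genes have a median of 1.11 in MD + Veh against CD + Veh in both fits, and in MD + PE against CD + PE their median moves from 0.296 to 1.14 when that library is left out.

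Diet and PE together, MD + PE against CD + Veh, gave 7 calls among the members, all of class I and all lower, where 14.6% of all genes tested were called and 8.55% were called lower. DESeq2 called 6 of them lower, without H2-T23, and also called H2-M2 higher, a gene under the filter on low counts here. H2-Q7 fell by 1.32 (SE 0.214, adjusted p = 0.000204), H2-Q6 by 1.18 (SE 0.21, adjusted p = 0.000501), H2-Q5 by 1.07 (SE 0.292, adjusted p = 0.0136) and H2-K2 by 1.51 (SE 0.305, adjusted p = 0.0015). For these 4 genes no MD + PE liver reached the lowest CD + Veh liver, as was so for 11.3% of all genes tested. H2-Q6 was at 28.4, 20.8, 20.9, 22.7 and 20.7 CPM in MD + PE livers, against a lowest value of 42.3 CPM in CD + Veh. H2-Q10 fell by 0.50 (SE 0.103, adjusted p = 0.00175), although MD + PE replicate 4 (1935 CPM) overlapped CD + Veh replicate 1 (1878 CPM). Of the other class I genes, H2-T22, at 80.2 to 93.5 CPM in CD + Veh and 66.5 to 83.6 CPM in MD + PE livers, had a log2 change of -0.25 (adjusted p = 0.242), and H2-M3, which presents formylated peptides, one of 0.13 (adjusted p = 0.856), with 1.15 to 3.17 CPM in CD + Veh and 0.956 to 3.05 CPM in MD + PE livers.

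H2-T23 was at 192, 189, 178 and 187 CPM in CD + Veh and at 143, 132, 139, 144 and 154 CPM in MD + PE livers, without overlap. It fell by 0.39 (SE 0.127, adjusted p = 0.0358), close to the size required, and the call was lost in 12 of 19 fits that left out a library each, those without any 1 of the 4 CD + Veh livers, MD + PE replicates 1 to 4, MD + Veh replicates 1 and 5 and CD + PE replicates 1 and 4 (adjusted p = 0.0388 to 0.107). Psmb10, an inducible subunit of the immunoproteasome, was at 26.8, 25.4, 24.96 and 23.8 CPM in CD + Veh and at 19.9, 15.2, 16.9, 15.2 and 18.2 CPM in MD + PE livers. The groups did not overlap, and it fell by 0.56 (SE 0.194, adjusted p = 0.047), a call kept in 5 of 19 such fits, those without MD + Veh replicate 4, CD + PE replicate 1, 2 or 5 or MD + PE replicate 1, and lost in the other 14 (adjusted p = 0.0505 to 0.122). With a term for the library number (up to 45 or above it, a split that crosses the MD + Veh group alone, replicates 1 to 3 against 4 and 5), 2 of the 7 genes (H2-K2 and H2-Q7) were called. In that fit the log2 change was -1.04 for H2-Q6 (adjusted p = 0.0861), -0.42 for H2-Q10 (adjusted p = 0.155) and -0.36 for H2-Q5 (adjusted p = 0.696).

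Hepatocyte markers were read beside these calls. Of 6, led by Alb, 4 were called lower and 1 higher in MD + PE against CD + Veh (list median -0.609, with 8.55% of all genes tested called lower). Against CD + PE, 4 were called lower in MD + PE (-0.496, with 2.92% of all genes), in MD + Veh against CD + Veh 3 lower and 1 higher (-0.395, with 5.63% of all genes called lower), and in MD + PE against MD + Veh 0 were called (-0.137). The serum protein Alb itself fell by 0.58 in MD + PE against CD + Veh (adjusted p = 0.00825), while Cyp2e1, the 1 called higher, rose by 0.96 (adjusted p = 0.000344), and by 0.52 (adjusted p = 0.0374) in MD + Veh against CD + Veh. Of 6 stellate cell markers, 3 were called higher in MD + PE against CD + Veh (list median 0.675, with 6.02% of all genes called higher). In MD + Veh against CD + Veh 1 was called higher (0.601, with 4.74% of all genes). In MD + PE against CD + PE it was 1 (0.482, with 1.69% of all genes), and 0 without CD + PE replicate 2. The part of hepatocytes or stellate cells in the class I values was not tested. In MD + PE against CD + Veh the class II genes had a median log2 fold change of 0.669, and 0 of 9 were called. Without CD + PE replicate 2, which is in neither group, Cd74 (0.75, adjusted p = 0.0233) and H2-Ab1 (0.77, adjusted p = 0.035) were called higher, beside 8 class I genes lower, where 16.0% of all genes tested were called (7.16% higher and 8.81% lower).

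Mean H2-Q7 levels were 156 ± 21.1 CPM (SD, n = 4) in CD + Veh, 89.5 ± 19.1 in MD + Veh, 126 ± 50.6 in CD + PE and 62.5 ± 12.5 in MD + PE livers (SD, n = 5 each). H2-Q6 was at 51.5 ± 6.77, 35.9 ± 7.37, 39.2 ± 15.8 and 22.7 ± 3.296 CPM in the same order. H2-Q10 was at 2195 ± 216, 2181 ± 140.5, 2275 ± 118 and 1553 ± 245 CPM, with overlapping ranges in the first 3 groups. Whether the response to PE differed between the diets was tested as an interaction, in which 0 members were called in edgeR's quasi-likelihood test, where 0.00735% of all genes tested were called. Of the members, 4 had an unadjusted p below 0.05, against 1193 of 13597 genes tested. H2-Q10 had an interaction of -0.54 on the log2 scale (SE 0.142, adjusted p = 0.216). DESeq2 called it, again without a share of all genes to set beside it. For Cd74 the interaction was -1.06 (SE 0.603, adjusted p = 0.657) with all libraries and -0.16 (SE 0.319, adjusted p = 0.923) without CD + PE replicate 2.

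The class I heavy chains resemble each other closely, and the counting divided reads by an estimated share where transcripts match. Of the stretches of 31 bases in the annotated transcripts of H2-Q5, 64.9% also occurred in other genes, as did 48% for H2-Q6, 42.8% for H2-Q4, 38.2% for H2-Q7, 31.3% for H2-Q10 and 26.6% for H2-K1. The share was 1.3% for H2-Aa, 0.236% for H2-Ab1 and 2.02% for H2-Eb1. For H2-K2 it was 18.5% and for H2-T23 23.9%. The division of counts among single Q genes, and that for H2-K2 and H2-T23, is therefore uncertain. Summed over H2-Q4 to H2-Q7 before the fit, the log2 fold change against CD + Veh was -0.61 (SE 0.195) in MD + Veh and -1.06 (SE 0.196) in MD + PE livers. Summed over all Q genes, which H2-Q10 dominates, it was -0.0629 (SE 0.102) and -0.55 (SE 0.101). In MD + PE against MD + Veh, the Q genes together had a log2 fold change of -0.49 (SE 0.0961) and the K and D genes together of -0.24 (SE 0.134). Against CD + Veh, the K and D genes together, of which H2-K2 has the fewest counts, had 0.14 (SE 0.143) in MD + Veh and -0.10 (SE 0.142) in MD + PE livers.

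Markers of cells that carry class II differed between the same libraries. The 10 Kupffer cell markers, led by Cd5l and all above the filter, summed to 250.5, 151, 258 and 258 CPM in CD + Veh and 172, 891, 171, 157 and 123 CPM in CD + PE livers. They summed to 312, 411, 452, 354 and 365 CPM in MD + Veh and 413, 278, 233, 284 and 316 CPM in MD + PE livers. CD + PE replicate 2 was the highest library for this sum as well, and every MD + Veh liver lay above every CD + Veh liver. With all libraries 0 of 10 were called in any contrast by edgeR, and without CD + PE replicate 2 the number called higher was 5 in MD + Veh against CD + Veh and 6 in MD + PE against CD + PE, where 6.17% and 3.59% of all genes tested were called higher. In the same fit 2 (Cd5l and Adgre1) were called higher in MD + PE against CD + Veh (7.16% of all genes), and 1, C1qa, was called lower in CD + PE against CD + Veh (-0.67, adjusted p = 0.0215), where the list median was -0.559 and 1.62% of all genes were called lower. Clec4f, a lectin of Kupffer cells, was at 93.8 CPM in CD + PE replicate 2 and at most 38.8 CPM in the other 4. In MD + Veh replicate 4, whose class II genes were low, the Kupffer sum (354 CPM) was not the lowest of its group.

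The 8 conventional dendritic cell markers, of which 4 passed the filter and Zbtb46 was the most abundant, summed to 9.06 to 12.3 CPM in CD + Veh, 10.7 to 16.5 in MD + Veh, 9.63 to 18.4 in CD + PE and 8.78 to 17.2 in MD + PE livers. Of the 4 tested, Itgax was called higher in MD + Veh (2.06, adjusted p = 0.0355) and in MD + PE (1.89, adjusted p = 0.0407) against CD + Veh, also without CD + PE replicate 2, from 0.201 to 0.871 CPM in CD + Veh to 1.16 to 4.06 in MD + Veh and 0.435 to 5.42 in MD + PE livers, the last of which overlapped CD + Veh. Without that library it was also called higher in MD + PE against CD + PE (2.13, adjusted p = 0.0463). The 7 B cell markers, led by Cd22 with 4 above the filter, summed to 3.91 to 5.16, 2.86 to 5.73, 1.38 to 9.297 and 2.33 to 5.48 CPM in the order of the dendritic cell sums, and 0 of the 4 tested were called. CD + PE replicate 2 was the highest library for both sums, and MD + Veh replicate 4 the lowest of its group for both. None of these markers was at 3 counts or fewer in every library. The 5 markers of lipid-associated macrophages, all tested and led by Lpl, summed to 51.2, 41.9, 48.5 and 44.5 CPM in CD + Veh and 215, 98.9, 97.7, 53.7 and 62.6 CPM in MD + Veh livers, and to 44.5, 65.6, 39.4, 36.4 and 53.9 CPM in CD + PE and 73.4, 63.2, 51.3, 182 and 58.2 CPM in MD + PE livers. With all libraries, Gpnmb and Lpl were called higher and Cd9 lower in MD + Veh against CD + Veh (list median 2.19), Gpnmb and Mmp12 higher in MD + PE against CD + PE (2.63) and Gpnmb, Mmp12 and Lpl higher in MD + PE against CD + Veh (1.67). Of all genes tested, 4.74%, 1.69% and 6.02% were called higher in these 3 comparisons, and 5.63% were called lower in the first. Without CD + PE replicate 2, 3 of the 5 markers were called higher in MD + PE against CD + PE (3.59% of all genes). The highest sums were those of MD + Veh replicate 1 and MD + PE replicate 4, not of CD + PE replicate 2. In MD + Veh, replicates 1 to 3 had the highest sums and also the most skeletal muscle transcripts. The part of muscle tissue in these sums and in the Lpl calls was not tested. The 5 plasmacytoid dendritic cell markers, 3 of them tested and led by Bst2, summed to 155 to 169, 187 to 256, 155 to 273 and 168 to 213 CPM in the same order of groups, highest in CD + PE replicate 2. Of these, Cox6a2, which skeletal muscle also carries, was called higher in MD + Veh against CD + Veh (5.21, adjusted p = 0.0319), with 49.3 CPM in MD + Veh replicate 1, the library with most muscle transcripts, and Bst2 was called without CD + PE replicate 2 (0.40, adjusted p = 0.0133). In MD + PE against MD + Veh, 1 of the 3 plasmacytoid dendritic cell markers tested was called lower, with and without CD + PE replicate 2. Of all genes, 0.934% and 1.09% were called lower in these 2 fits. Of 6 skeletal muscle markers, 4 were called lower in both fits (list median -9.31 in each), and the plasmacytoid list holds Cox6a2. The part of muscle transcripts in this call was not tested. The part of cell numbers in the class II values was not tested.

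**Figure D4:**
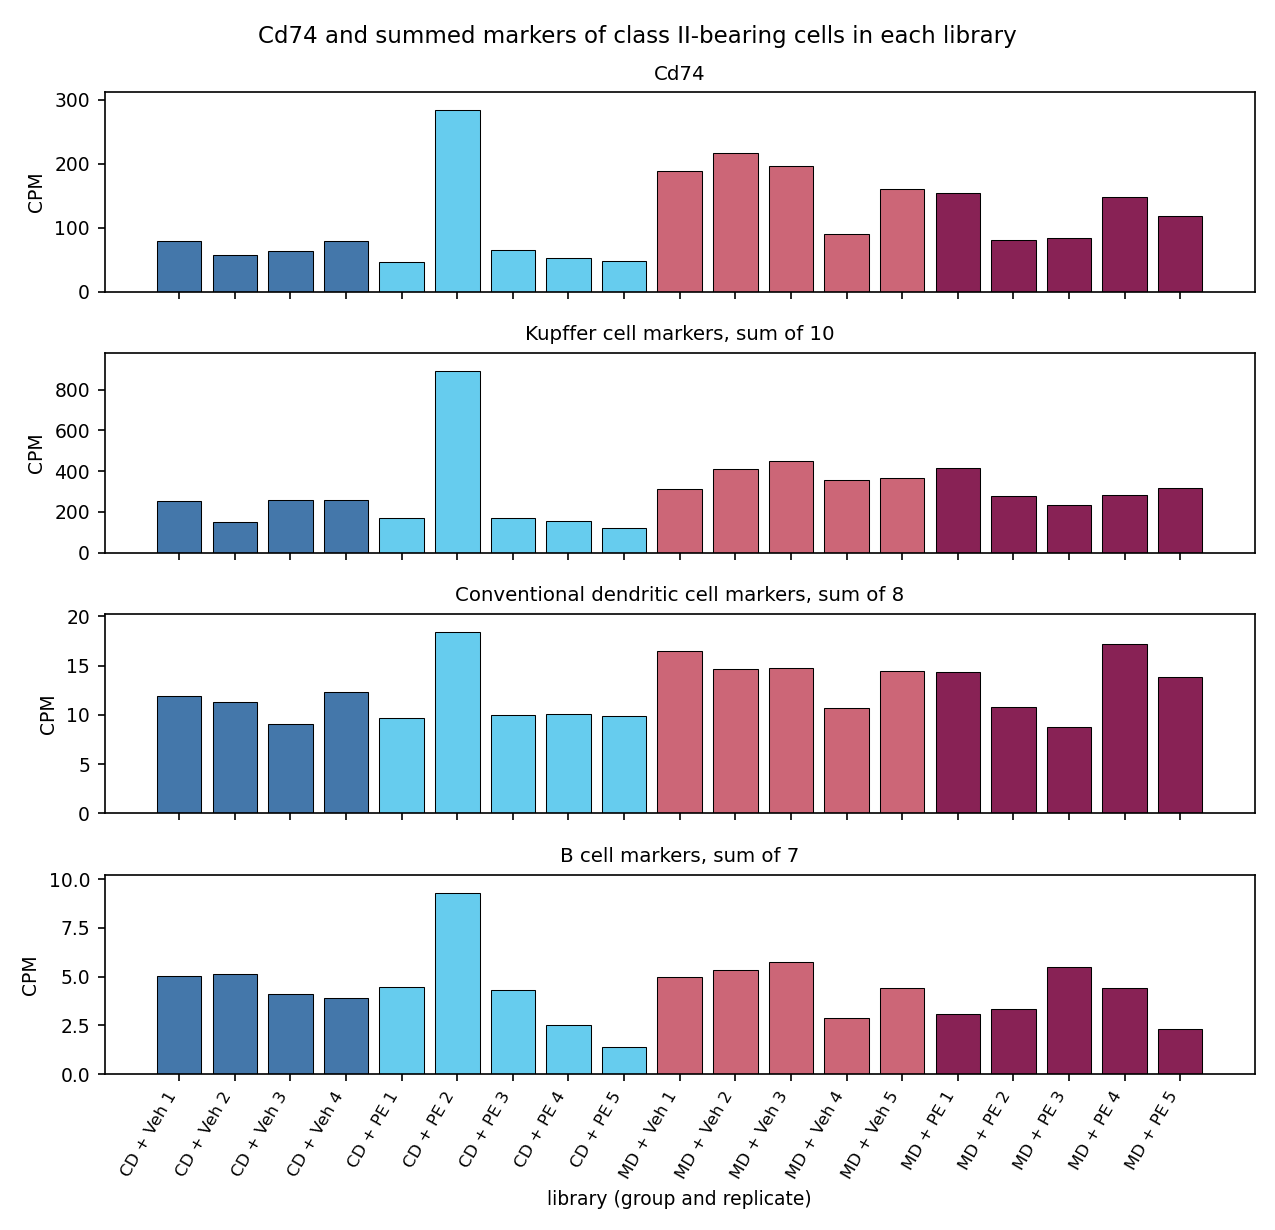
Bars show CPM from 0 for Cd74 and for the summed markers of Kupffer cells (10 genes), conventional dendritic cells (8 genes) and B cells (7 genes) in each of the 19 libraries, coloured by group. CD + PE replicate 2 is the highest in all 4 panels, with 283 CPM of Cd74 and 891 CPM of Kupffer cell markers.

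The rest of the pathway was read from further gene lists. With all libraries, 4.74% of all genes tested were called higher and 5.63% lower in MD + Veh against CD + Veh. The shares were 1.22% and 1.70% in CD + PE against CD + Veh and 6.02% and 8.55% in MD + PE against CD + Veh. They were 1.69% and 2.92% in MD + PE against CD + PE and 0.147% and 0.934% in MD + PE against MD + Veh. Of 9 proteases and regulators of the class II compartment, the lysosomal protease Ctsb rose and Ctsl fell in MD + Veh against CD + Veh (log2 fold change 0.40, adjusted p = 0.00065, and -0.44, adjusted p = 0.00384), with a list median of 0.4. Ctss, the protease that trims the invariant chain, was at 30.4, 21.99, 21.9 and 27.6 CPM in CD + Veh and at 45.6, 58.2, 56.5, 36.3 and 45.9 CPM in MD + Veh livers, without overlap. It was called without CD + PE replicate 2 (0.93, adjusted p = 0.00605) but not with it (adjusted p = 0.139). In the fit without that library 5 genes of this list were called higher and 1 lower in MD + Veh against CD + Veh (6.17% and 5.97% of all genes tested). It called 3 higher and 1 lower in MD + PE against CD + PE (3.59% and 3.66% of all genes) and likewise against CD + Veh (7.16% and 8.81%), and 1 lower, Ctsd, in CD + PE against CD + Veh (1.62%). Ctsl fell in each of the 3 comparisons of an MD group with CD + Veh or CD + PE that were run (by 0.44, 0.44 and 0.58).

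Of 12 transcription factors of MHC genes, Nfyb, a subunit of the CCAAT-binding factor NF-Y, fell in MD + Veh (by 0.48, adjusted p = 0.000159) and in MD + PE (by 0.64, adjusted p = 3.32e-06) against CD + Veh and in MD + PE against CD + PE (by 0.45, adjusted p = 0.0003). Against CD + Veh, Irf2 fell with PE alone and with the MASH diet alone (by 0.48, adjusted p = 0.00981, and by 0.49, adjusted p = 0.00222), and with both its log2 change was -0.29 (adjusted p = 0.0408), short of the size required. Irf1 fell in MD + PE against CD + PE (by 0.71, adjusted p = 0.0381, and by 0.38, adjusted p = 0.0497, without CD + PE replicate 2), and in the fit without that library it was also called lower in MD + PE against CD + Veh (-0.50, adjusted p = 0.00496) and against MD + Veh (-0.47, adjusted p = 0.0422). Irf2, the most abundant factor of this list, lay at 93.6 ± 9.22 CPM in CD + Veh livers (SD, n = 4). With all libraries 0 of 12 were called higher in any contrast, and without CD + PE replicate 2 Irf8 (0.61, adjusted p = 0.0304) and Spi1 (0.65, adjusted p = 0.036) were among those called higher in MD + Veh against CD + Veh. Of 7 genes of interferon gamma signalling tested, Irf1 was the only 1 called with all libraries, and the kinase Jak1, the most abundant, had a log2 change of -0.0263 in MD + Veh against CD + Veh (adjusted p = 0.824).

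Class I-like genes outside the H2 complex were read from a list of 7, of which 6 passed the filter. Mr1, which shows microbial vitamin B metabolites to MAIT cells, was at 13, 13.5, 9.53 and 17.9 CPM in CD + Veh and 3.68, 3.53, 3.68, 3.405 and 3.63 CPM in MD + Veh livers, and at 6.97, 8.77, 4.33, 3.01 and 8.003 CPM in CD + PE and 1.54, 3.12, 2.09, 3.296 and 3.23 CPM in MD + PE livers. All livers of the other 3 groups lay below the CD + Veh livers. Against CD + Veh, Mr1 fell by 1.91 with the MASH diet alone (SE 0.261, adjusted p = 7.47e-05), by 1.11 with PE alone (SE 0.256, adjusted p = 0.0193) and by 2.34 with both (SE 0.269, adjusted p = 4.83e-06), and it fell by 1.23 in MD + PE against CD + PE (adjusted p = 0.00717). Cd1d1, which shows lipids to NKT cells, rose against CD + Veh by 0.46 with the diet alone, 0.47 with PE alone and 0.39 with both (adjusted p = 0.0038, 0.0117 and 0.00895), comparisons that share the CD + Veh livers. Azgp1, the most abundant of the list, was called in none (log2 change 0.00806 in MD + Veh against CD + Veh, adjusted p = 0.965). Hfe, the iron regulator, and Procr, the protein C receptor, rose in MD + Veh against CD + Veh (0.47, adjusted p = 0.000329, and 2.01, adjusted p = 0.00322).

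Of 8 partners of class I assembly in the endoplasmic reticulum, Calr, Pdia3 and Pdia4 were called higher in MD + PE than in CD + Veh livers (0.58, 0.39 and 0.57, adjusted p = 0.00211, 0.0162 and 0.0119) and Sec61b lower (fell by 0.38, adjusted p = 0.0365), and 0 of 8 were called in the other 5 contrasts by edgeR. Calreticulin (Calr) and ERp57 (Pdia3) hold the heavy chain in the peptide-loading complex. Hspa5, the chaperone BiP and after Calr the most abundant of the list, had a log2 change of 0.51 in that comparison (adjusted p = 0.124). Of 11 proteasome core and activator subunits, Psmb6 fell in MD + PE against CD + Veh (by 0.39, adjusted p = 0.00128), while Psmb1, the most abundant, had a log2 change of -0.21 (adjusted p = 0.00795). The activator subunits Psme1 and Psme2 fell in MD + PE against CD + PE (by 0.44 and 0.39, adjusted p = 0.0371 and 0.0206), and neither was called without CD + PE replicate 2. Of 4 costimulation genes tested, Cd40 was at 0.143 to 0.403 CPM in CD + Veh and 0.634 to 0.991 CPM in MD + Veh livers. It was over the call threshold there (1.78, adjusted p = 0.00895), but with counts at the limit of the filter, which it passed with all libraries and not without CD + PE replicate 2, so that nothing is read from it. Cd86, a ligand of the costimulatory receptor Cd28, was not called with all libraries in any contrast, and without that library it was called higher in MD + Veh (0.89, adjusted p = 0.00528) and MD + PE (0.68, adjusted p = 0.0226) against CD + Veh and in MD + PE against CD + PE (1.37, adjusted p = 0.000722), where 6.17%, 7.16% and 3.59% of all genes tested were called higher. In MD + PE against MD + Veh, 0 genes of these 7 pathway lists were called with all libraries.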

How the data were processed

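Per the labels and the study's methods, liver RNA (TRIzol, poly(A) selection, stranded libraries) was trimmed with fastp 0.23.4 and quantified by the authors with Salmon 1.10.3 against the GENCODE transcriptome of GRCm39 (release not given in the sources used here). The deposited values are expected counts per gene, rounded by the authors to whole numbers. None of the 36 pairs of libraries within a group agreed within sampling noise. The members, gene lists and tests were chosen with earlier results of these data known. Counts were fitted with edgeR 4.0.16 in R 4.3.3 (filterByExpr by group, TMM, 1 coefficient per group over all 19 libraries, quasi-likelihood test, Benjamini-Hochberg adjustment over all genes tested), which was tested on simulated data. SE is the log2 fold change divided by the square root of F. The genes named in full were members called in any contrast, the 3 most abundant of each role, and 12 named in every case (B2m, H2-K1, H2-D1, Nlrc5, Tap1, Psmb8, Psmb9, H2-Aa, H2-Ab1, H2-Eb1, Cd74 and Ciita). From the pathway lists, 1 gene is not reported here. DESeq2 1.42.0, other filters and scalings, a replicate block, a term for library numbers above 45 and leaving out libraries were tried. Promoters, motifs and 31-base matches came from GRCm39 and GENCODE vM39. Each library is from 1 mouse. Sequencing depth limits genes under 1 CPM.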

Additional observations from a re-analysis of the deposited data

Results flagged for a closer look

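Of 112 sets of values (28 genes in 4 groups), 27 held a highest or lowest library farther from its group than Dixon's 95% value allows, where chance gives about 5% of sets. Of these, 21 were the same library, CD + PE replicate 2, each time the highest of its group.

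In that library the class II genes Cd74 (283 CPM), H2-Ab1 (127), H2-Eb1 (87.8), H2-Aa (66), H2-DMb1 (17.4), H2-DMa (16.5) and Ciita (9.65 CPM) were apart. So were the class I heavy chains H2-D1 (1050 CPM), H2-T23 (289), H2-Q7 (216), H2-T22 (128), H2-Q4 (82.8), H2-Q6 (66.7), H2-Q5 (8.07) and H2-M3 (3.95 CPM). The class I partners apart were Tapbp (123 CPM), Tap1 (81.1), Psmb8 (78.8), Psmb9 (57.2), Psmb10 (44) and Nlrc5 (38.1 CPM). The Kupffer cell markers of this library summed to 891 CPM against at most 172 CPM in the other CD + PE livers, and their part in these values was not tested.

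The other 6 values came from 6 libraries. H2-K2 was high in CD + Veh replicate 4 (24.2 CPM), Psmb8 was high in CD + Veh replicate 1 (36.9 CPM) and H2-Q5 was low in CD + Veh replicate 3 (4.16 CPM). Erap1 was low in MD + Veh replicate 1 (74.3 CPM), the library with skeletal muscle transcripts, and Tapbp was low in MD + Veh replicate 4 (56.2 CPM). H2-Q6 was high in MD + PE replicate 1 (28.4 CPM).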

How the results depend on the processing

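Of 39 log2 fold changes of named members, 14 were called. Over the alternative fits these 14 had 392 values, with 0 reversals among them. The alternative fits share most of their libraries. The stricter filter on low counts kept all 39 on their side of the threshold, and RLE scaling and the fit with no filter moved 2 and 1 called values below it. The number of members called in MD + Veh against CD + Veh (2) became 6 with DESeq2, 11 in a fit of the groups compared alone, 5 with the library-number term (numbers up to 45 or above it, which only MD + Veh livers span) and 9 without the 3 libraries that stand apart (CD + PE replicate 2, MD + Veh replicate 1 and MD + PE replicate 2, a choice made after seeing the data). In CD + PE against CD + Veh (0) it became 1 with DESeq2 and 1 without the 3 libraries. In MD + PE against MD + Veh (1) it became 2 with DESeq2, another 1 in the groups alone (Psmb9 in place of H2-Q10), 0 with the library-number term (H2-Q10 -0.44, adjusted p = 0.221) and 0 without the 3 libraries (H2-Q10 -0.48, adjusted p = 0.0883). In MD + PE against CD + PE (4) it became 6 with DESeq2 (H2-K2 and Psmb10 added), 2 in the groups alone (H2-Q10 and H2-Q7) and 10 without the 3 libraries. In MD + PE against CD + Veh (7) it became 5 with RLE scaling (H2-T23 and Psmb10 lost), 6 with no filter (Psmb10 lost), 7 with DESeq2 (H2-T23 lost and H2-M2 called higher), 11 in the groups alone, 2 with the library-number term and 11 without the 3 libraries. The interaction (0) became 1 with DESeq2. The share of all genes called in these alternative fits is not given here. Leaving out a library at a time gave 0 to 2 calls in CD + PE against CD + Veh, 1 to 11 in MD + Veh against CD + Veh, 0 to 3 in MD + PE against MD + Veh, 2 to 11 in MD + PE against CD + PE, 5 to 10 in MD + PE against CD + Veh and 0 to 0 in the interaction, each highest count above 0 without CD + PE replicate 2.

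Reversals were found among uncalled values. In CD + PE against CD + Veh without the 3 libraries, the log2 fold change was -0.39 for Cd74, -0.64 for Ciita, -0.85 for H2-Aa, -0.44 for H2-Ab1, -0.0464 for H2-D1, -0.56 for H2-Eb1, -0.0373 for H2-K1, -0.26 for Psmb9 and -0.17 for Tap1. H2-Aa, at 0.00165 with all libraries, was at -0.0131 with no filter, -0.0547 with counts thinned to equal depth and -0.14 with the replicate block. Over the fits that left out a library each, these values ranged from -0.39 to 0.71 for Cd74, -0.64 to 0.99 for Ciita, -0.85 to 0.22 for H2-Aa, -0.43 to 0.59 for H2-Ab1, -0.0429 to 0.28 for H2-D1, -0.56 to 0.48 for H2-Eb1, -0.0338 to 0.22 for H2-K1, -0.25 to 0.53 for Psmb9 and -0.16 to 0.46 for Tap1, and B2m in MD + PE against MD + Veh from -0.11 to 0.0199. The cause of these changes, beyond the libraries left out, was not tested.

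Replicate numbers did not pair the samples. Over 27 pairs the correlation of same-numbered libraries had a median of 0.0293 (-0.245 to 0.41) and 6 were above 0.1. The replicate block gave 5 calls in MD + PE against CD + PE, with H2-K2 added, and changed no other count.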
